A study of Mus musculus with 6 samples.

Results

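Actb, Tuba1b, B2m, Ppia, Rpl13a, Hsp90ab1, Tbp, Nono and Tfrc are genes of the cytoskeleton, the ribosome, transcription, protein folding and the cell surface that the array carried as reference genes. They were taken from the scanner output by their probe names, and make up 9 of 15 reference genes that were each printed as 20 spots on every array, among 59631 probes in all. The unflagged spots of a probe were averaged on the log2 scale and quantile normalised together with all other probes. A difference of 1 on this scale is a fold of 2. By the RefSeq annotation of GRCm38.p6 the genes lie on chromosomes 5 (Actb), 15 (Tuba1b), 2 (B2m), 11 (Ppia), 7 (Rpl13a), 17 (Hsp90ab1 and Tbp), X (Nono) and 16 (Tfrc).

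The study profiled liver RNA on 6 one-colour arrays. The tumours came from Apcfl/fl mice, whose hypomorphic Apc allele lowers Apc function and which were kept to 12 months, when they carried hepatocellular carcinoma (HCC). The controls were livers of 12-month-old Apc+/+ mice. Both groups had the C57Bl/6 background and 3 arrays each, and no Cre driver or cell type is named to which the allele was limited. Frozen tissue was used in bulk, so that fewer cells of a type and less RNA per cell cannot be told apart in any value below. Neither the labels nor the methods tie an array to a particular animal, and the p-values therefore measure only the spread between these samples.

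Reference genes serve as the denominator of relative expression measurements such as real-time PCR. A good one keeps the same level across tissues and disease states, because any change in the denominator is carried into every gene measured against it. Genes of the cytoskeleton, the translation apparatus and protein folding are common choices because all cells use them.

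Before any comparison, Apcfl/fl replicates 1 and 2 stood out as nearly the same measurement. Their mean chi-square per probe against the scanner software's own error was 0.774 over 29685 probes. The other pairs within a group had values from 1.99 to 15.1. A value of 1 is what that error alone would give. For spots of the 9 genes it had a median of 0.144 on the log2 scale, above the median SD between spots of 0.0981. A value below 1 thus does not show that only technical noise separates the pair. Apcfl/fl replicates 1 and 2 were counted as 1 sample, which left 2 tumour and 3 normal samples. Where Apcfl/fl replicate 3, or replicates 1 and 2, are left out, 1 tumour sample remains, and the spread then comes from the normal livers alone and is assumed to hold for the tumour. For the 9 genes the largest difference between Apcfl/fl replicates 1 and 2 was 0.08 on the log2 scale, in Hsp90ab1. That does not set the pair apart, since Apc+/+ replicates 2 and 3 differed by at most 0.066, in Actb. The mean chi-square of this normal pair was 1.99, and it was kept as 2 samples. Row 1 of the slide held the 3 tumour arrays together with Apc+/+ replicate 1, and row 2 held Apc+/+ replicates 2 and 3. The median intensity of an array ran from 38.4 to 61.1, and 50.8% to 82.8% of its spots were well above background.

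Upstream sequence is shown for the gene that differed most between tumour and normal liver, Tuba1b, and for the 3 steadiest genes, Ppia, B2m and Rpl13a. Each window holds the 250 bases before the annotated start, from RefSeq on GRCm38.p6, written 5′ to 3′ on the strand of the gene. Capitals mark matches on either strand to TATAAA (the TATA box, where TBP binds), CCAAT (the CCAAT box), GGGCGG (the GC box of Sp1-type factors) and CTTTGA (a core of TCF/LEF sites, through which β-catenin acts), and no matches overlapped in these windows.
Tuba1b upstream window, chr15:98934391-98934640, minus strand: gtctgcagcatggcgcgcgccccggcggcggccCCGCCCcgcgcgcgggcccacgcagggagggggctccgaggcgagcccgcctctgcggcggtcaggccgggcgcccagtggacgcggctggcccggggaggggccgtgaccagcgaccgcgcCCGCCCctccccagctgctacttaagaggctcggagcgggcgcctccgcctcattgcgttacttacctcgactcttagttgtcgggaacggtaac
Ppia upstream window, chr11:6415617-6415866, plus strand: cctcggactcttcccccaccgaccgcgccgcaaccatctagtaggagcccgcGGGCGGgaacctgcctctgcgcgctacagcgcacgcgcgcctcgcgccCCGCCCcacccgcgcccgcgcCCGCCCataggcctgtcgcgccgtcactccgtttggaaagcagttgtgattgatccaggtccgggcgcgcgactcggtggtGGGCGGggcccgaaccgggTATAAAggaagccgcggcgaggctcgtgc
B2m upstream window, chr2:122147437-122147686, plus strand: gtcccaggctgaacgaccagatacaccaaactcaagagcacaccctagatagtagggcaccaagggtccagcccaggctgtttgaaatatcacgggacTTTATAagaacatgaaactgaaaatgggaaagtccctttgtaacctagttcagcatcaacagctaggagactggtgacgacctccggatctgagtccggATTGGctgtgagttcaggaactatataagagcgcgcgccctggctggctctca
Rpl13a upstream window, chr7:45128746-45128995, minus strand: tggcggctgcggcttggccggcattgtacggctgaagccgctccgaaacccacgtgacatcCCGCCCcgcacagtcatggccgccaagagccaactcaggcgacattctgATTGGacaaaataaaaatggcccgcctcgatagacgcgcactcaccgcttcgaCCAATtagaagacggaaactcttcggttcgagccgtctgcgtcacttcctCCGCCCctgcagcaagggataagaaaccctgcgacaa

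The Tuba1b window held 75.6% G and C and 2 GC boxes, and the Ppia window held 72.4%, 4 GC boxes and TATAAA beginning 29 bases before the start. The B2m window held 50.8% G and C, with a TATAAA match 152 bases and a CCAAT match 53 bases before the start, both on the opposite strand. The Rpl13a window held 58.8%, 2 CCAAT matches and 2 GC boxes. Among all 32851 listed promoters the median was 52.4%. TATAAA occurred in 12.4% of them, CCAAT in 33.8%, GGGCGG in 32.7% and CTTTGA in 13.8%. CTTTGA was in none of the 4 windows shown, but it occurred once in the Tbp window, 114 bases before the start, and at 125 and 58 bases in the listed Nono window, which does not end at the annotated start of that gene and is not printed. A match is a string of letters and does not show binding. Promoter sequences were listed for 7 of the 9 genes, and Actb and Hsp90ab1 were not among them.

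The 20 spots of a gene gave closely similar signals within an array. Of 1080 spots of the 9 genes on the 6 arrays, 34 were flagged by the scanner software and left out, at most 6 for any gene on any array (Rpl13a on Apc+/+ replicate 2). The SD between spots of an array had a median of 0.0981 on the log2 scale and ran from 0.0228 for B2m on Apc+/+ replicate 1 to 0.227 for Tbp. The standard error of the mean over spots had a median of 0.0220 and did not exceed 0.0508. No probe spot was saturated, and every gene lay above the brightest of 20 negative control probes on every array. Tbp came nearest to it, at 2.27 on the log2 scale on Apc+/+ replicate 1.

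**Figure D1:**
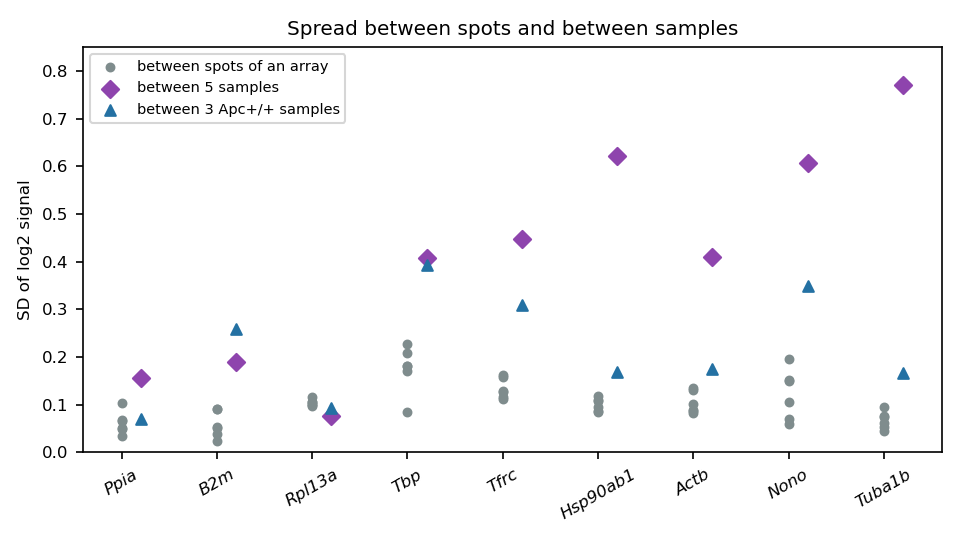
SD of the log2 signal (y axis) for each gene (x axis), with grey points for the SD between spots of each of the 6 arrays, diamonds for the SD between the 5 samples and triangles for the SD between the 3 Apc+/+ samples. For Rpl13a the SD between samples, 0.0761, lay below that between its single spots. It lay above the standard error of the mean over spots, at most 0.0268, which is not drawn. For Tuba1b the SD between samples was 0.770 while that between spots stayed between 0.0448 and 0.0950.

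For Rpl13a the SD between samples was 0.0761, smaller than the SD between its single spots, which ran from 0.0969 to 0.116. A sample value is a mean over spots, and the standard error of that mean was 0.0217 to 0.0268. The SD between samples was thus larger than this error. For the other 8 genes the SD between samples, from 0.156 for Ppia to 0.770 for Tuba1b, exceeded the median SD between spots. Spots of an array are repeat measurements of 1 labelled RNA, and more of them does not lower the spread between livers.

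Tuba1b was upregulated in the tumours, Nono was lower in every tumour array, and the other 7 genes differed by less than 2-fold. Tuba1b was the 1 gene of the 9 that passed the adjusted threshold (limma, Benjamini-Hochberg adjusted p under 0.05 and a fold of at least 2), where 1.92% of all 45640 tested probes passed. These calls rested on each normal liver: in place of 878 probes, 0, 1 and 0 were called without Apc+/+ replicate 1, 2 or 3 (8917, 5883 and 5796 had an unadjusted limma p under 0.05), and 361 without Apcfl/fl replicate 3. With Apc+/+ replicates 2 and 3 averaged as 1 sample, 0 probes were called, while 6201 had an unadjusted limma p under 0.05. The calls of companion and marker genes given below are thus also lost without Apc+/+ replicate 1 or 3, or with replicates 2 and 3 averaged. At the threshold of the study's methods, a fold of at least 2 and p up to 0.05 before adjustment, Tuba1b and Nono passed, 2 of 9, against 11.2% of all tested probes. Of the 9 genes, 6 were higher and 3 lower in the tumours, with a median difference of 0.05 and a median absolute difference of 0.29 on the log2 scale. Over all tested probes these medians were 0.06 and 0.37.

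**Figure D2:**
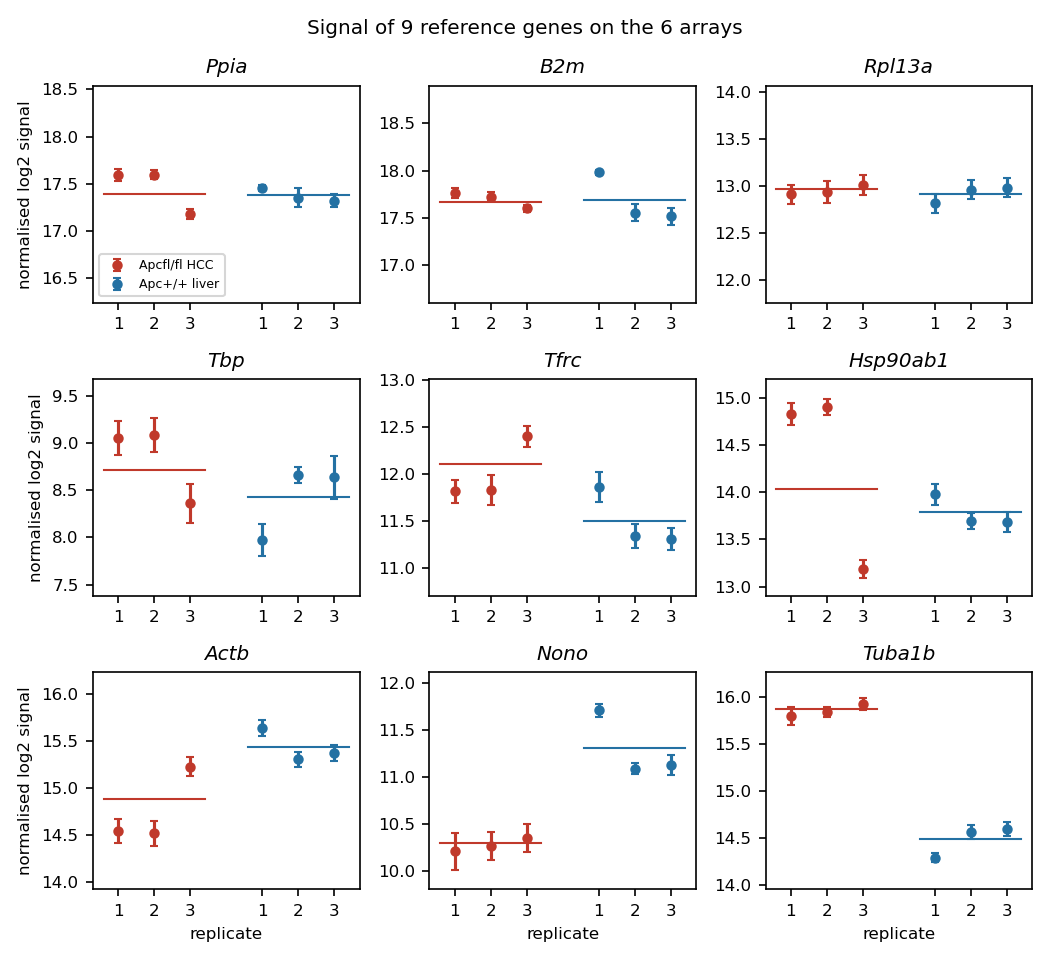
Normalised log2 signal (y axes of equal span, each centred on its own gene) of the 9 genes on the 3 Apcfl/fl HCC arrays (red) and 3 Apc+/+ liver arrays (blue). Bars show 1 SD between spots and horizontal lines the group means, for which Apcfl/fl replicates 1 and 2 count as 1 sample. The groups did not overlap for Tuba1b, Nono and Actb, and Hsp90ab1 on Apcfl/fl replicate 3 lay below all other arrays.

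Tuba1b encodes an alpha-tubulin, which pairs with beta-tubulin to build microtubules, among them those of the mitotic spindle. Its normalised log2 signal was 15.80, 15.84 and 15.92 on Apcfl/fl replicates 1, 2 and 3 and 14.29, 14.56 and 14.59 on Apc+/+ replicates 1, 2 and 3. All tumour arrays were above all normal arrays, and the arrays of each group lay close together. The difference was 1.39 on the log2 scale (SE 0.20, n = 2 against 3, limma adjusted p = 0.0489), a 2.62-fold rise with a 95% interval from 1.83 to 3.74. The adjusted p lay close to the threshold. Within slide row 1 the difference was 1.58, but with the row as a block its adjusted p was 0.207, and without Apcfl/fl replicate 2 it was 0.0536, without Apcfl/fl replicate 3 0.0942, and without Apc+/+ replicate 1, 2 or 3 it was 0.102, 0.174 and 0.210.

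A separate probe for Tuba1b elsewhere on the array read 16.63, 16.61 and 16.75 in the tumours, in replicate order, against 15.19, 15.35 and 15.49 in normal liver (normalised log2 signal). Its difference was 1.34 (SE 0.20, limma adjusted p = 0.0509). It could be named only because it stands in the authors' table of probes they called, so it was bound to differ. Over the 6 arrays its pattern was the nearest to that of the 20-spot probe among 2239 tested and named mRNA probes, with a root mean square difference of 0.0519 between mean-centred log2 values. Pde4b, a phosphodiesterase (0.0589), and Syngr4, a synaptogyrin (0.0590), came next. Both were dim, at 5.47 to 6.93 and 4.46 to 6.09 over the arrays, so their likeness to Tuba1b is uncertain. The alpha-tubulin genes are closely alike in coding sequence, and which of them each probe reads was not tested.

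Actb encodes beta-actin, the building block of the cortical and contractile filaments of non-muscle cells. On the log2 scale after normalisation, the signals were 14.55, 14.52 and 15.23 in Apcfl/fl replicates 1, 2 and 3, against 15.64, 15.31 and 15.37 in the normal livers. All tumour values were below all normal values, but Apcfl/fl replicate 3 lay far closer to the normal arrays than the other tumour arrays did. The difference was −0.56 (SE 0.28, 95% interval −1.28 to 0.16, limma adjusted p = 0.382). Without Apcfl/fl replicate 3 it was −0.90, and without replicates 1 and 2 it was −0.21, each with 1 tumour sample left. The interval allows both no difference and a fall of more than 2-fold.

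Companion genes of both filaments could be named only where the authors had called them. Of 13 tubulins and partners, 3 had a named probe, and all 3 were higher in the tumours. Tuba8, another alpha-tubulin, rose by 3.45 (SE 0.40, limma adjusted p = 0.0341). Tubb6, a beta-tubulin, was 2.07 higher (adjusted p = 0.129) and Tuba1c 1.12 higher (adjusted p = 0.201). Of 13 genes of the actin cytoskeleton, 3 were named and higher, and the actin-binding gene Tagln2 passed with a rise of 2.82 (SE 0.26, adjusted p = 0.0221). Arpc1b, a subunit of the actin-nucleating Arp2/3 complex, was 2.04 higher (adjusted p = 0.0552). Because a gene without a call carries no name here, such counts do not describe the unnamed members of a list.

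Nono encodes an RNA- and DNA-binding protein of paraspeckles, the nuclear bodies built on a long noncoding RNA. Apcfl/fl replicates 1, 2 and 3 had normalised log2 signals of 10.21, 10.27 and 10.36, and Apc+/+ replicates 1, 2 and 3 had 11.71, 11.09 and 11.13. The tumour arrays lay close together and all below the normal arrays, of which replicate 1 was 0.60 above the mean of the other two. The difference was −1.01 (SE 0.27, limma adjusted p = 0.140), a level 2.01-fold lower with a 95% interval of the ratio from 0.309 to 0.798. With the 6 arrays taken as 6 samples it was −1.03 with an adjusted p of 0.0366. Within slide row 1, against Apc+/+ replicate 1 alone, it was −1.41, and without Apc+/+ replicate 1 it was −0.81. None of 5 paraspeckle partners had a named probe.

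Tbp encodes the TATA-binding protein, the core of the general transcription factor TFIID. Normalised log2 signals were 9.06, 9.09 and 8.36 in the 3 tumours and 7.97, 8.67 and 8.64 in the 3 normal livers, in replicate order. The lowest values were those of Apcfl/fl replicate 3 and Apc+/+ replicate 1, and the groups overlapped. The difference was 0.29 (SE 0.35, 95% interval −0.60 to 1.19, limma adjusted p = 0.717). Without Apcfl/fl replicates 1 and 2 it was −0.06, without Apcfl/fl replicate 3 it was 0.65, and within slide row 1 it was 0.75. Of 9 TBP partners, 2 were named: Gtf2b, which recruits RNA polymerase II, was 1.02 higher (adjusted p = 0.107), and the TFIID subunit Taf5 was dim, between 4.02 and 5.84 and well above background on 2 of the 3 normal arrays, so that no difference is given.

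Rpl13a encodes a protein of the large ribosomal subunit. In replicate order, the tumours read 12.91, 12.93 and 13.01 and the normal livers 12.81, 12.96 and 12.98 (normalised log2 signal). The 6 values spanned 0.19 on the log2 scale and the groups overlapped. The difference was 0.05 (SE 0.18, limma adjusted p = 0.921), and its 95% interval, from 0.744-fold to 1.43-fold, leaves out a 2-fold change in either direction. The SD over samples was smaller in 1.29% of tested probes. One other ribosomal protein gene, Rps27a, had a named probe and was 1.65 higher (adjusted p = 0.0936).

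Ppia encodes cyclophilin A, an enzyme that turns proline bonds during protein folding. The tumour arrays gave normalised log2 signals of 17.59, 17.59 and 17.18, those of normal liver 17.45, 17.35 and 17.32. The normal arrays lay between the tumour arrays, of which replicate 3 was the lowest of all. The difference was 0.01 (SE 0.22, limma adjusted p = 0.984), with a 95% interval from 0.688-fold to 1.48-fold. Of 7 other cyclophilins, 2 were named and lower in the tumours. Ppig, a nuclear cyclophilin, fell by 1.67 (SE 0.21, adjusted p = 0.0378), and Ppih, a cyclophilin of the spliceosome, was at −1.01 (adjusted p = 0.210). Ppih was dim in the tumours, at 5.51 to 6.17, so the size of its difference is uncertain.

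Hsp90ab1 encodes the constitutive cytosolic chaperone HSP90 beta, which matures kinases and steroid receptors. On the log2 scale after normalisation, the signals were 14.84, 14.91 and 13.19 in Apcfl/fl replicates 1, 2 and 3, against 13.98, 13.70 and 13.68 in the normal livers. Apcfl/fl replicates 1 and 2 were the highest of all arrays and replicate 3 the lowest, 1.68 below their mean. The difference was 0.25 (SE 0.52, limma adjusted p = 0.844), with a 95% interval from 0.470-fold to 2.99-fold. Leaving out Apcfl/fl replicate 3 gave 1.09, and leaving out replicates 1 and 2 gave −0.60, each with 1 tumour sample left, so that the sign rested on which tumour was used.

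Of 12 HSP90 partners, 3 were named and none passed the adjusted threshold by limma, while 2 had an unadjusted p of at most 0.05. The stress-inducible form Hsp90aa1 was 1.20 higher (adjusted p = 0.126), and unlike Hsp90ab1 it was highest on Apcfl/fl replicate 3, at 16.76 against 16.42 and 16.27 on replicates 1 and 2. The kinase co-chaperone Cdc37 was at −1.22 (adjusted p = 0.148). Stip1, which joins HSP70 to HSP90, was 1.08 higher (adjusted p = 0.279), with 8.08, 8.01 and 6.70 on the Apcfl/fl arrays.

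B2m encodes beta-2 microglobulin, the invariant light chain of MHC class I molecules. Apcfl/fl replicates 1, 2 and 3 had normalised log2 signals of 17.76, 17.72 and 17.60, and Apc+/+ replicates 1, 2 and 3 had 17.98, 17.55 and 17.52. Apc+/+ replicate 1 was the highest and replicates 2 and 3 the lowest, with the tumours between them. The difference was −0.01 (SE 0.23, limma adjusted p = 0.985), with a 95% interval from −0.61 to 0.58 on the log2 scale, and its sign changed with the scaling: it was 0.36 after scaling to the 75th percentile. Of 12 partners of B2m in antigen presentation, 2 were named. Psmb9, an immunoproteasome subunit, rose by 2.05 (SE 0.18, adjusted p = 0.0199), and the peptide transporter Tap1 was 1.13 higher (adjusted p = 0.186).

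Tfrc encodes the transferrin receptor, through which cells take up iron. Normalised log2 signals were 11.81, 11.83 and 12.40 in the 3 tumours and 11.86, 11.34 and 11.31 in the 3 normal livers, in replicate order. Apcfl/fl replicate 3 was the highest, and the other tumour arrays lay just below Apc+/+ replicate 1. The difference was 0.60 (SE 0.30, 95% interval −0.16 to 1.37, limma adjusted p = 0.372). Over the alternatives it ran from 0.25, within slide row 1, and 0.31, without Apcfl/fl replicate 3, up to 0.78 without Apc+/+ replicate 1, 0.81 with 75th percentile scaling and 0.89 without Apcfl/fl replicates 1 and 2. Of 14 genes of iron handling, 4 were named. The siderophore-binding Lcn2 rose by 7.20 (SE 0.39, adjusted p = 0.0125) and the iron importer Slc11a2 by 1.76 (SE 0.20, adjusted p = 0.0335). Hamp, which encodes the iron hormone hepcidin, was at −2.24 (adjusted p = 0.0595) and Hamp2 at −2.02 (adjusted p = 0.111).

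**Figure D3:**
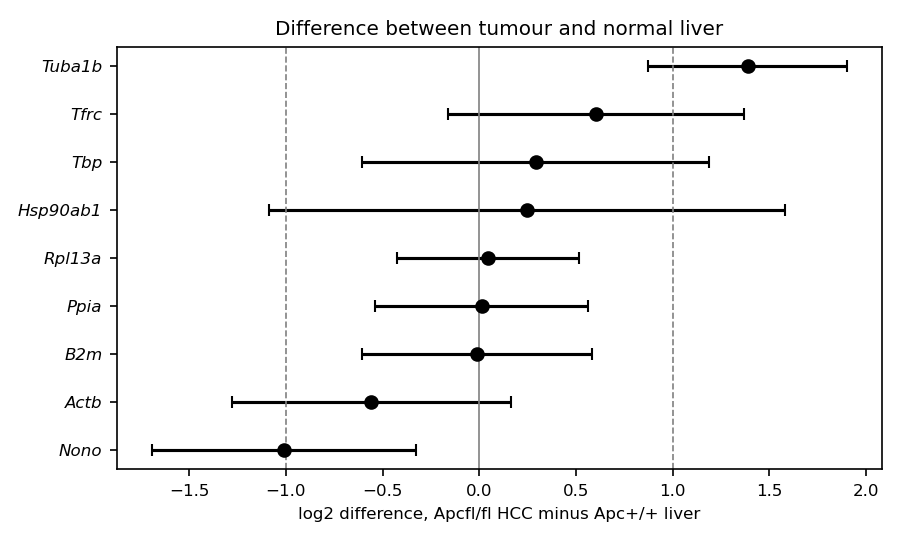
Difference in log2 signal between Apcfl/fl HCC and Apc+/+ liver (x axis) for each gene (y axis), with 95% intervals from limma over 2 tumour and 3 normal samples and dashed lines at a 2-fold change. The intervals of Rpl13a, Ppia and B2m lie between the dashed lines, those of Tuba1b and Nono leave out 0, and that of Hsp90ab1 crosses both dashed lines.

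On the 6 arrays the groups did not overlap for 3 of the 9 genes, Tuba1b, Nono and Actb, where 33.8% of all tested probes did not overlap. With 6 arrays as 6 samples, Tuba1b and Nono passed the adjusted threshold, 2 of 9, against 7.54% of all tested probes. With the slide row as a block, which rests the difference on Apc+/+ replicate 1 alone, no tested probe passed the adjusted threshold by limma, companion genes included, while 5179 of 45640 had an unadjusted p under 0.05 against 8328 without the block. The differences within row 1 were then −0.75 for Actb, −0.31 for B2m, 0.15 for Rpl13a, 0.05 for Hsp90ab1 and −0.065 for Ppia, and the row cannot be fully told apart from the groups.

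Fitness as a reference was described by 2 measures that need no choice of groups. The first was the SD of a gene over the 5 samples, and the second was the mean SD of its log2 ratio to each of the other 8 genes, which is lower for a gene that keeps step with the rest. The second measure was 0.457 for Ppia, 0.470 for B2m and 0.474 for Rpl13a, then 0.614 for Tbp, 0.628 for Tfrc, 0.651 for Actb, 0.733 for Hsp90ab1, 0.790 for Nono and 0.876 for Tuba1b. The values of Ppia, B2m and Rpl13a were so close that no order is read from them. Ppia, B2m and Rpl13a were also the lowest 3 by the SD over samples. They were the lowest 3 by the ratio measure with the 6 arrays as 6 samples, and on the deposited signals without normalisation, where it was 0.455, 0.467 and 0.469. A shift of a whole array cancels in a ratio, so the ratio measure does not test the scaling. The SD over samples on the deposited signals was 0.209 for Ppia, 0.280 for B2m and 0.135 for Rpl13a, with Tbp next at 0.431. By the absolute difference between groups they were the lowest 3 only under some scalings, quantile normalisation among them. On the deposited signals Tbp had the smallest difference, 0.049, against 0.096 for B2m, 0.11 for Rpl13a and 0.13 for Ppia. With 75th percentile scaling Actb, at −0.16, and Tbp, at 0.31, lay nearer to 0 than B2m at 0.36, Rpl13a at 0.37 and Ppia at 0.40. By the ratio measure Actb, Tbp and Tfrc changed places among themselves between these settings.

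Ppia, B2m and Rpl13a also had the steadiest ratios to one another, which follows in part from the measures that picked them. It does not show that they moved together. On Apc+/+ replicate 1, B2m was at its highest of all arrays (17.98) and Rpl13a at its lowest (12.81). Of 36 pairs, the ratio of B2m to Ppia had the smallest SD over the samples, 0.167 on the log2 scale, followed by Ppia to Rpl13a with 0.212 and B2m to Rpl13a with 0.262. Actb and Nono, both lower in the tumours, came next with 0.344. The ratio of Tuba1b to Nono had the largest SD, 1.36, since these genes differed in opposite directions, and was 5.27-fold higher in the tumours. The ratio of Tuba1b to Actb was 3.85-fold higher. The ratio differed by over 2-fold between the groups for 13 of the 36 pairs, of which 12 held Tuba1b or Nono and the other was Actb with Tfrc.

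**Figure D4:**
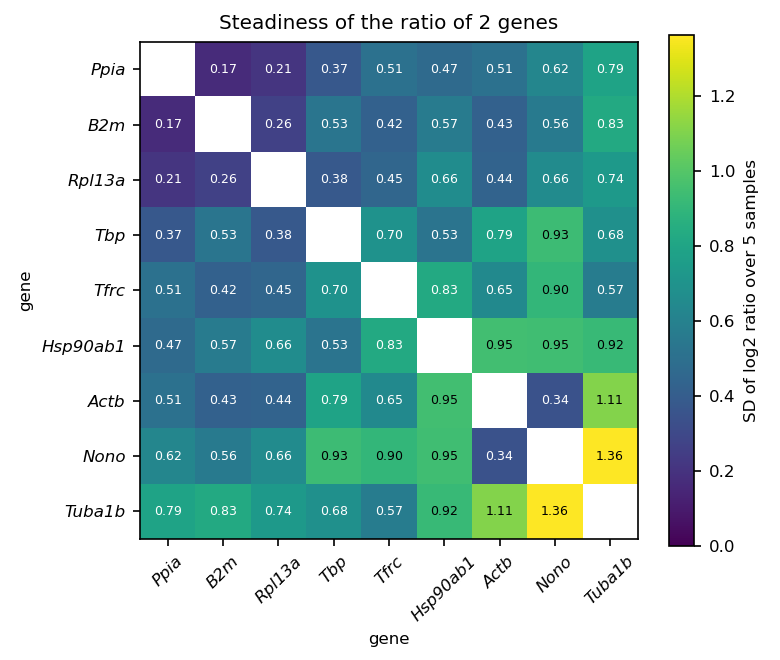
SD over the 5 samples of the log2 ratio of each pair of genes (both axes list the 9 genes, the colour and the printed value give the SD). The block of Ppia, B2m and Rpl13a holds the 3 lowest values, 0.17 to 0.26, and Tuba1b with Nono the highest, 1.36.

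Patterns over the 6 arrays were also set beside all 15 reference genes, by the root mean square difference of mean-centred log2 values. B2m and Ppia were nearest to each other (0.148). Rpl13a was nearest to Ldhal6b (0.114) and then to Ppia (0.194), and Tbp was nearest to Ppia (0.328). Ldhal6b was dim, 1.08 to 1.73 above the brightest negative control probe over the arrays, so its likeness to Rpl13a is uncertain. Actb was nearest to Gk (0.172) and Nono to Actb (0.282). Tfrc was nearest to Gapdh (0.249). Tuba1b and Hsp90ab1 had no near neighbour among them, with 0.391 to Gusb and 0.462 to Tbp. The 6 metabolic reference genes differed between tumour and normal liver by −0.24 (Gk) to 1.70 (G6pd2) on the log2 scale, and none passed the adjusted threshold by limma, while G6pd2 and Gusb passed that of the study's methods. G6pd2 was dim in normal liver, 1.06 to 1.30 above the brightest negative control probe, so the size of its rise is uncertain. Gapdh was 0.51 higher (adjusted p = 0.312).

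Scaling to a single reference subtracts that gene's own difference from every other probe, so the medians and shares below follow from the members' differences and are a description of their size, not a test. Each gene in turn was set to the same level on all arrays of the deposited, unnormalised signals, and limma was fitted to all tested probes again. With Tuba1b as the reference the median difference of all tested probes was −1.75 on the log2 scale, 38666 probes passed the threshold of the study's methods and 0.809% of them were higher in the tumours. With Nono the median was 0.95, 19111 probes passed and 97.4% were higher. Under quantile normalisation the median was 0.06, 5118 probes passed and 47.8% were higher. With Actb the median was 0.21 and 65.8% of 4792 probes were higher.

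Ppia, B2m and Rpl13a gave medians of −0.35, −0.31 and −0.32 and shares of 21.3%, 24.1% and 22.4% higher among 6418, 6248 and 6397 probes. Their mean gave −0.32 and 22.5% of 6303, and the mean of all 9 genes gave −0.34 and 21.6% of 6348. Without any scaling the median was −0.21. Against each of these references most probes that passed were lower in the tumours, where quantile normalisation gave a near-even split. Whether the bulk of transcripts fell or the 3 genes rose cannot be told apart on these arrays, which have no spiked-in standard in use here. Scaled to Tfrc, Hsp90ab1 and Tbp, the medians were −0.76, −0.50 and −0.26. The difference of Tuba1b was 0.99 when scaled to Tfrc and 2.71 when scaled to Nono, with the other references between.

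**Figure D5:**
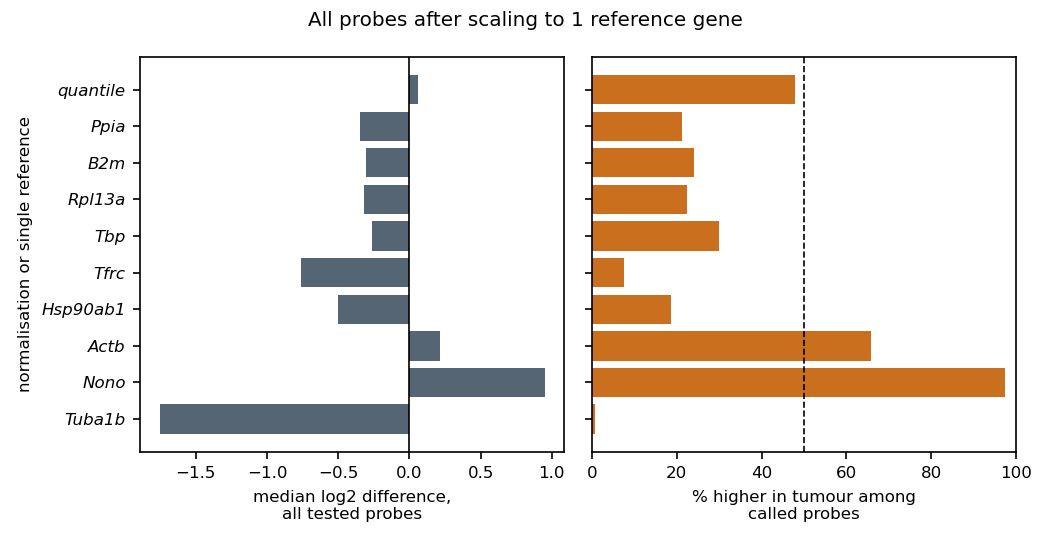
Median log2 difference of all tested probes (left x axis) and share higher in the tumours among probes past the threshold of the study's methods (right x axis), under quantile normalisation and after scaling to each gene (y axis). Scaling to Tuba1b moved the median to −1.75 and to Nono 0.95, and the dashed line marks an even split.

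Markers of other cell types and of cell division could be named only where the authors had called them. Each named marker was therefore bound to differ between the same samples, and the counts do not describe the unnamed markers. All 5 named genes of 8 for proliferation were higher in the tumours, and 3 passed: Ccnb1, a mitotic cyclin, rose by 3.93 (SE 0.21, limma adjusted p = 0.0125), Ccna2 by 3.71 (SE 0.31, adjusted p = 0.0196) and the mitotic kinase Cdk1 (adjusted p = 0.0155) from 5.35 to 5.52 in normal liver to 9.96 to 10.95 in the tumours. Cdk1 was well above background on 2 of the 3 normal arrays and dim there, so the size of its rise is uncertain. The log2 of the summed signal of all 5 ran from 12.49 to 13.00 on the Apcfl/fl arrays and from 8.74 to 8.82 on the Apc+/+ arrays. The hepatocyte genes Apoa1, Cebpa and Cps1, 3 named of 7, were lower, with a summed log2 signal of 14.45 to 15.53 against 16.59 to 17.36, and Apoa1 was at 13.56 or above on every array. The leukocyte genes Cd74 and Adgre1, 2 of 8, were higher, with 11.49 to 13.09 against 10.32 to 10.97. The biliary gene Spp1, 1 of 5, rose (adjusted p = 0.0351), with 12.33 to 13.89 against 7.41 to 8.52, and the endothelial gene Pecam1, 1 of 5, was at −1.46 (adjusted p = 0.0924). Pecam1 was dim in the tumours, at 5.10 to 5.96, so the size of its difference is uncertain. No fibroblast or erythroid marker had a named probe, so that their levels were not analysed here. The part of cell make-up or of cell division in the differences of Tuba1b, Nono and Actb was not tested.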

How the data were processed

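Liver RNA of 3 Apcfl/fl HCC and 3 Apc+/+ samples was hybridised to one-colour mouse lncRNA arrays. The deposited intensity values were made by the authors' scanner software, Agilent Feature Extraction 11.0.1.1, with background subtracted. The deposited table of log2 values, normalised by the authors, holds only probes they called. It served to name 2239 tested mRNA probes, and its comparison columns (folds and p-values) were not used. Here log2 processed signals of unflagged spots were averaged and quantile normalised (limma 3.58.1, R 4.3.3), control probes were left out, and 45640 probes well above background on at least 3 arrays were tested with lmFit and eBayes. Single values are limited by the number of arrays. The scripts were tested on simulated data. The members, the lists and the rule for named genes (all members, 2 nearest reference probes, 3 nearest named probes for a member past a fold of 2, and companions with a named probe) were chosen with earlier results of these data known. The named probes nearest to Nono are not reported here. Alternatives changed background correction, scaling, filter, spot averaging, variance model, replicates and blocks. Normexp (offset 50) used the median signal, since the files used here hold no mean signal. Probe sequences were not analysed here, and RefSeq coordinates are given only with the upstream windows, since the probes were designed on another build.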

Additional observations from a re-analysis of the deposited data

How the results depend on the processing

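Of 189 values of the 9 genes under 21 alternatives, 160 kept their direction and their side of the adjusted threshold, 16 changed sign, 12 lost the call (all Tuba1b) and 1 gained it. The cause of these changes was not tested. Tuba1b was higher under all 21 (1.29 to 1.80, adjusted p 0.00746 to 0.210) and passed in 9. Its difference no longer passed without normalisation (1.54), without a filter on dim probes (1.39), with Apc+/+ replicates 2 and 3 averaged (1.43), with the slide row as a block (1.58) and, in alternatives chosen after seeing the data, without Apcfl/fl replicates 1 and 2 (1.44) or scaled to the mean of Ppia, B2m and Rpl13a (1.43). In each of these 0 of the 9 genes passed by limma, with 1 or 2 at an unadjusted p under 0.05. With 6 arrays as 6 samples 2 passed, Nono (−1.03) being added. The number past the methods' threshold was 1 with normexp, with 75th percentile scaling, with the median over spots and without Apcfl/fl replicates 1 and 2. The replicate numbers did not pair the samples (correlations of deviations 0.06, −0.07 and 0.04). With the replicate block 0 of 9 passed by limma (2 at an unadjusted p under 0.05), Tuba1b being 1.37 and B2m 0.012. Signs of small differences changed. B2m was 0.36 with 75th percentile scaling, 0.10 without normalisation and 0.012 with 6 arrays by limma or the methods' t-test. Ppia was −0.0072 with Apc+/+ replicates 2 and 3 averaged, −0.065 with the slide row as a block and −0.20 without Apcfl/fl replicates 1 and 2, where Hsp90ab1 was −0.60 and Tbp −0.064. Scaled to the mean of Ppia, B2m and Rpl13a, Rpl13a was −0.0059 and Tbp −0.063. Leaving out 1 replicate at a time gave 0 to 1 gene past the adjusted threshold, 1 to 3 past the methods', and differences of 1.29 to 1.44 for Tuba1b, −0.095 to 0.14 for B2m, −0.016 to 0.22 for Ppia and −0.0072 to 0.077 for Rpl13a. With 2 tumour samples and quantile normalisation, a 2-fold difference was beyond the 95% interval for Rpl13a, Ppia and B2m only. Without normalisation the SE was larger, 0.37 for B2m and 0.35 for Ppia. It is not stated here that a 2-fold difference stays beyond the interval under other settings.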
